A study of Homo sapiens with 18 samples.

Results

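Transcript levels were followed for 10 chromatin regulators that are recurrently mutated in, or used as drug targets of, germinal centre lymphoma: EZH2, EED, SUZ12, CREBBP, EP300, ARID1A, KDM6A, DOT1L, SMARCA4 and KDM1A. A regulator was taken where a row of the expression table carried its symbol alone, and 8 of the 10 had such a row among 26004 named rows. EED and EP300 appeared only in rows that also carried a microRNA, so their values are described apart, without a test. The 3 lines, SUDHL6, SUDHL4 and Farage, are established cultures of human diffuse large B cell lymphoma, germinal centre class. Each line was given a BCL6 inhibitor (BCL6.inh in the sample names) or the solvent DMSO, with 3 libraries in each of 6 groups and 18 in all. The sample titles give 12 h of exposure and the source names 24 h. All groups were grown in the same serum-containing RPMI1640 medium. The sources used here give neither the compound, its dose nor the genotypes of the lines. Whether the 3 libraries of a group came from separate cultures is not given either, so each p-value below measures the spread between these samples, which may be technical.

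Germinal centre B cells keep their differentiation genes shut through BCL6, a transcriptional repressor, and through EZH2, which methylates lysine 27 of histone H3 within Polycomb repressive complex 2 (PRC2) together with EED and SUZ12. KDM6A removes that mark, and CREBBP and EP300 place acetyl groups on the same lysine at enhancers, so these enzymes act against EZH2. SMARCA4 is the ATPase and ARID1A a DNA-binding subunit of the SWI/SNF complex that slides nucleosomes, KDM1A removes methyl groups from lysine 4 of histone H3, and DOT1L methylates lysine 79.

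Levels are FPKM, fragments scaled by transcript length and by mapped reads of the library, so they can be set side by side between genes. FPKM sums ran from 1130063 to 1548453 per library, and small RNA rows held 27.4 to 53.8% of them, so a sum is not a total of messenger RNA. The table held no counts and the depth is unknown. Relative depth, read from whole-read steps at unnamed 56 bp rows, ran from 0.691 to 1.15 of the median in 16 libraries, and in each line the treated libraries lay lower than the DMSO libraries. Both SUDHL6 replicate 3 libraries gave no such steps and stood apart: Pearson's r across genes was as low as 0.88 and 0.908 within the SUDHL6 groups, against at least 0.957 within the others. Markers of B cells were present in all groups, the 5 that could be measured summing to 339.8 to 1238 FPKM, while 5 T and NK cell markers summed to at most 1.13 FPKM and 5 monocyte markers to at most 3.50 FPKM. Of the 6 stromal and epithelial markers, THY1 and DCN were present in SUDHL4, where the 6 summed to 51.3 to 55.4 FPKM in DMSO and 15.02 to 16.4 FPKM under the inhibitor. 

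The promoters of 4 regulators that carry the results are printed here as RefSeq gives them for GRCh38.p14, from 250 bases before to 50 bases after the gene's start, 5′ to 3′ on the gene's strand. EZH2 and CREBBP have 2 listed starts each, and only the window of the first is printed. Capitals mark matches on either strand to letters known from E2F sites (TTTGGCGC or TTTCCCGC), to the E-box letters CACGTG and to the CCAAT box.
EZH2 promoter, chr7:148884242-148884541 (- strand): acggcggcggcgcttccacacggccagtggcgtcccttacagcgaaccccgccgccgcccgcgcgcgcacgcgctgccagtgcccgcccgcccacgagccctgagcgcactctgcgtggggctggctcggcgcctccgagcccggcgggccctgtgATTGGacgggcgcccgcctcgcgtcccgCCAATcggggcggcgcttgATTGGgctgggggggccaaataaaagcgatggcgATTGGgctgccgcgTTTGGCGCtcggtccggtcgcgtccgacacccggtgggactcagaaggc
SUZ12 promoter, chr17:31936757-31937056 (+ strand): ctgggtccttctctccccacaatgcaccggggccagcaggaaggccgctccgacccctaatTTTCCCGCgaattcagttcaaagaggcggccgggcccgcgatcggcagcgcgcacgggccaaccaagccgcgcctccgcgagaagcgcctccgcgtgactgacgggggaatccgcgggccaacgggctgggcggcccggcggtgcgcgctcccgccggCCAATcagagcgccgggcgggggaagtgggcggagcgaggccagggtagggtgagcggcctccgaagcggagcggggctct
CREBBP promoter, chr16:3880664-3880963 (- strand): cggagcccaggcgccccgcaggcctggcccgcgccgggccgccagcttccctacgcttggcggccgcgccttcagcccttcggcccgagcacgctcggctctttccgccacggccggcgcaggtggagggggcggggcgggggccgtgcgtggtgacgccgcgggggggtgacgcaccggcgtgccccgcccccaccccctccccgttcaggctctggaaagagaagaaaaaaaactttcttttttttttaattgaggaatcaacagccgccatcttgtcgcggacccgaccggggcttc
KDM6A promoter, chrX:44872938-44873237 (+ strand): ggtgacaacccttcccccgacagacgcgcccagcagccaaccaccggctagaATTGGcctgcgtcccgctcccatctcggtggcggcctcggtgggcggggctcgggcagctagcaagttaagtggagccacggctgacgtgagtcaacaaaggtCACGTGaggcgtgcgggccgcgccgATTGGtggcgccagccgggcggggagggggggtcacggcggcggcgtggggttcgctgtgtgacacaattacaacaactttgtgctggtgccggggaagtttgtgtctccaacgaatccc
In the EZH2 window shown, E2F letters stood at position 2 from that start and CCAAT boxes at positions -94, -66, -47 and -13. The window of the second EZH2 start, chr7:148883436-148883735, held none of the marked letters. SUZ12 held E2F letters at position -189 and 1 CCAAT box, and KDM6A an E-box at position -95 between 2 CCAAT boxes. TTTGGCGC occurs in 0.7%, TTTCCCGC in 1.6%, CACGTG in 7.3% and CCAAT in 34.6% of 35116 promoters of the same length, and these motifs do not overlap in the windows shown. The BCL6 letters TTCCTAGAA, present in 0.4% of promoters, and the CRE letters TGACGTCA, present in 1.8%, were in none of the 12 windows of the 9 regulators the table covers. The looser TTCCNNGAA, present in 4.5% of promoters, was in the EED window, with 2 matches, and in no other. A match describes letters in a window and is not evidence of binding, and a missing match says only that these letters were not there.

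Under the inhibitor, CREBBP and KDM6A rose in each line to between 2.67 and 4.27 times their DMSO level, ARID1A and SUZ12 rose in each line to between 1.30 and 1.63 times, and SMARCA4 and KDM1A fell in each line to between 0.470 and 0.652 of it. DOT1L passed the test in no line, and EZH2 passed it only in SUDHL4. Differences are log2 fold changes of FPKM + 1 from limma fitted to all 18 libraries, and a gene was called at a Benjamini-Hochberg adjusted p under 0.05 over 12201 rows. In SUDHL6, 4 of the 8 regulators were called higher and 2 lower, where 30.2 and 33.7% of all tested rows were. SUDHL4 had 5 called higher and 2 lower, against 29.6 and 37.1% of all rows. Farage had 4 called higher and 2 lower, against 29.2 and 38% of all rows. On the mean of the 3 within-line effects 5 were higher and 2 lower, against 35.7 and 44.9% of all rows. Most genes were thus called in this table, so a call alone does not set these regulators apart, and the sizes of the changes are given beside all genes below. The median effect of the 8 was 0.19, 0.44 and 0.38 in SUDHL6, SUDHL4 and Farage, beside -0.01, -0.04 and -0.07 over all rows. In such bulk samples, fewer cells that hold a transcript and less of it per cell cannot be told apart.

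**Figure D1:**
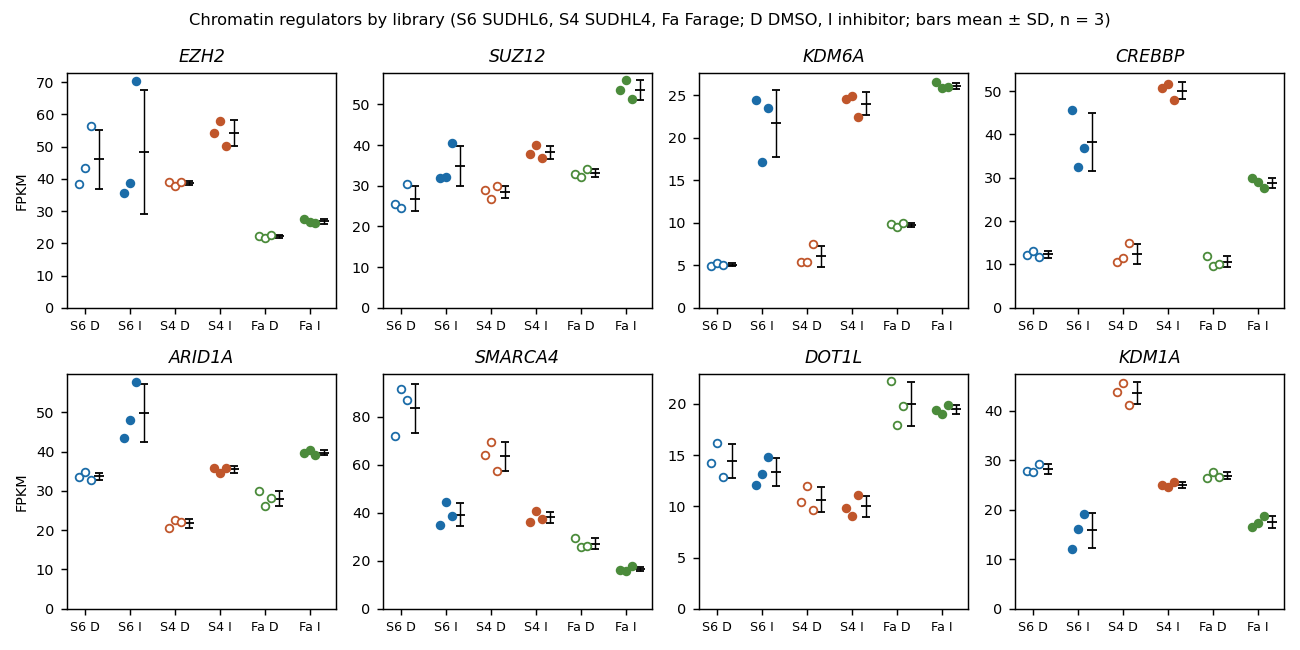
FPKM of the 8 regulators in each library (points; open DMSO, filled inhibitor; blue SUDHL6, orange SUDHL4, green Farage), with the mean ± SD of each group of 3 as bars. KDM6A libraries under the inhibitor sit between 17.2 and 26.5 FPKM, all above the DMSO libraries at 4.92 to 9.985 FPKM, and the EZH2 library at 70.3 FPKM is SUDHL6 inhibitor replicate 3.

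EZH2, the catalytic subunit of PRC2, lies in a row on chromosome 7 from 148504350 to 148677069 (hg19). In SUDHL6 it stood at 38.5, 43.4 and 56.3 FPKM in the DMSO libraries and at 35.7, 38.7 and 70.3 FPKM under the inhibitor. In SUDHL4 the DMSO libraries held 39.0, 37.9 and 39.1 FPKM and the inhibitor libraries 54.3, 58.1 and 50.2 FPKM. Farage libraries held 22.3, 21.7 and 22.7 FPKM in DMSO and 27.7, 26.6 and 26.2 FPKM under the inhibitor. The groups overlapped in SUDHL6, where replicate 3 was the highest library of both groups, and were separated in SUDHL4 and Farage, with all inhibitor libraries higher. EZH2 rose in SUDHL4, by 0.47 ± 0.19 (SE) on the log2 scale (limma adjusted p = 0.0386). In Farage the difference was 0.26 ± 0.19 (SE, limma adjusted p = 0.241) and in SUDHL6 0.02 ± 0.19 (SE, limma adjusted p = 0.964). The EZH2 effect exceeded that of 53.7% of all tested genes in SUDHL6, 76.8% in SUDHL4 and 69.2% in Farage. Without both SUDHL6 replicate 3 libraries the Farage difference was called (limma adjusted p = 0.00165), and the SUDHL6 difference became -0.13 (limma adjusted p = 0.130). Without the SUDHL6 inhibitor replicate 3 library alone, EZH2 was lower in SUDHL6 by the test, at -0.29 (limma adjusted p = 0.0426), and higher in Farage (limma adjusted p = 0.0356). The SUDHL4 call was lost at limma adjusted p = 0.150 when libraries were scaled to equal sums without small RNAs, and at 0.0706 to 0.107 when SUDHL4 inhibitor replicate 1 or 2 or any 1 SUDHL4 DMSO library was left out. With replicate number as a block, Farage was called as well (limma adjusted p = 0.0325), and also when that line was fitted alone (limma adjusted p = 0.000662). Over 29 alternatives the limma adjusted p in SUDHL4 ran from 1.245e-05 to 0.150, and 7 of the 29 lost the call. The mean of the 3 effects was called, at 0.25 ± 0.11 (SE, limma adjusted p = 0.0472), and lost its call in 16 of 28 alternatives (highest limma adjusted p 0.177).

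The level of EZH2 without the inhibitor was lowest in Farage, at 22.2 ± 0.496 FPKM (SD, n = 3), beside 38.7 ± 0.645 FPKM (SD, n = 3) in SUDHL4 and 46.1 ± 9.20 FPKM (SD, n = 3) in SUDHL6. Farage lay below SUDHL6, with a log2 difference of -1.003 ± 0.19 (SE, limma adjusted p = 0.000283), and differed from SUDHL4 by -0.77 ± 0.19 (SE, limma adjusted p = 0.00245). SUDHL4 and SUDHL6 overlapped and were not told apart (-0.23, 95% interval -0.64 to 0.18). Scaled to equal sums without small RNAs, EZH2 was called lower in SUDHL4 than in SUDHL6 (-0.62, limma adjusted p = 0.00849), and the call between Farage and SUDHL4 was lost (-0.30, limma adjusted p = 0.167). The closest patterns over the 6 group means, by root mean square difference of centred log2(FPKM + 1) among 6628 genes, included those of RPS13 (0.098) and PIGT (0.1).

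SUZ12, the subunit that PRC2 needs for its assembly, lies in a row on chromosome 17 from 30263996 to 30328292 (hg19). In SUDHL6 it stood at 25.6, 24.5 and 30.3 FPKM with DMSO, against 32.01, 32.1 and 40.6 FPKM with inhibitor. In SUDHL4 these were 28.9, 26.8 and 29.8 FPKM in DMSO and 37.8, 40.0 and 36.9 FPKM under the inhibitor. In Farage they were 33.0, 32.1 and 34.2 FPKM in DMSO and 53.5, 56.1 and 51.2 FPKM under the inhibitor. Every inhibitor library lay above every DMSO library of its line. SUZ12 rose by 0.37 ± 0.09 (SE, limma adjusted p = 0.00284) in SUDHL6, 0.41 ± 0.09 (SE, limma adjusted p = 0.00110) in SUDHL4 and 0.68 ± 0.09 (SE, limma adjusted p = 1.31e-05) in Farage, on the log2 scale. These effects exceeded those of 73, 74.6 and 84.2% of all tested genes in the same line. The SUDHL6 call was lost when that line was fitted alone (limma adjusted p = 0.0769). At baseline SUZ12 was higher in Farage, at 33.1 ± 1.03 FPKM (SD, n = 3), than in SUDHL6, at 26.8 ± 3.09 FPKM (SD, n = 3), with a log2 difference of 0.30 ± 0.09 (SE, limma adjusted p = 0.00981) that a correction for GC content and transcript length reduced to 0.13 (limma adjusted p = 0.0684). SUDHL4 differed from SUDHL6 by 0.09 (limma adjusted p = 0.413). That difference was called lower in SUDHL4 with equal sums without small RNAs (-0.30, limma adjusted p = 0.0112) and higher without both SUDHL6 replicate 3 libraries (0.18, limma adjusted p = 0.0158). EZH1, the paralog of EZH2, fell by 0.46 in SUDHL6 (limma adjusted p = 0.00247) and by 0.58 in Farage (limma adjusted p = 0.000342) and rose by 0.56 in SUDHL4 (limma adjusted p = 0.000496), a difference between lines that passed its test (limma adjusted p = 7.77e-05). Under the inhibitor EZH2 exceeded EZH1 by 4.90 ± 0.344 (SD, n = 3) times in Farage, where the DMSO ratio was 2.56 ± 0.0841 (SD, n = 3). In SUDHL4 the ratio was 3.22 ± 0.187 (SD, n = 3) in DMSO and 3.03 ± 0.668 (SD, n = 3) under the inhibitor, within the spread of the libraries.

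KDM6A, the demethylase that removes the mark of EZH2, lies in a row on chromosome X from 44732421 to 44972028 (hg19). SUDHL6 libraries held 4.92, 5.30 and 5.05 FPKM in DMSO and 24.5, 17.2 and 23.5 FPKM under the inhibitor. SUDHL4 libraries held 5.34, 5.365 and 7.465 FPKM in DMSO and 24.6, 24.9 and 22.4 FPKM under the inhibitor. Farage libraries held 9.85, 9.465 and 9.985 FPKM in DMSO and 26.5, 25.8 and 26.0 FPKM under the inhibitor. In each line every inhibitor library lay above every DMSO library, and Farage had the highest DMSO libraries. KDM6A rose by 1.89 ± 0.12 (SE, limma adjusted p = 2.07e-08) in SUDHL6, 1.84 ± 0.12 (SE, limma adjusted p = 1.33e-08) in SUDHL4 and 1.33 ± 0.12 (SE, limma adjusted p = 2.40e-07) in Farage, on the log2 scale. The 3 effects exceeded those of 98.2, 97.7 and 95% of all tested genes in the same line. Baseline KDM6A was higher in Farage than in SUDHL6 by 0.82 ± 0.12 (SE, limma adjusted p = 2.61e-05) and than in SUDHL4 by 0.62 ± 0.12 (SE, limma adjusted p = 0.000368), while SUDHL4 and SUDHL6 differed by 0.20 (95% interval -0.06 to 0.46) and were not told apart. KDM6B, the other H3K27 demethylase, rose too, from 10.5 ± 2.61 to 17.7 ± 1.60 FPKM in SUDHL6, from 7.95 ± 1.08 to 25.7 ± 0.566 FPKM in SUDHL4 and from 9.67 ± 0.672 to 21.7 ± 0.786 FPKM in Farage (SD, n = 3 each). Its limma adjusted p was 0.000337, 1.56e-07 and 6.68e-06 in that order. The gene closest to KDM6A in pattern was RC3H1 (root mean square difference 0.107).

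The ratio of methyltransferase to demethylase transcripts, EZH2 over KDM6A, was lower under the inhibitor in each line. In SUDHL6 this ratio of FPKM was 7.83, 8.19 and 11.2 in DMSO and 1.46, 2.25 and 3.00 under the inhibitor. In SUDHL4 it was 7.30, 7.07 and 5.24 in DMSO and 2.21, 2.33 and 2.24 under the inhibitor. In Farage it was 2.26, 2.29 and 2.27 in DMSO and 1.05, 1.03 and 1.01 under the inhibitor. Every inhibitor library lay below every DMSO library of its line. Farage DMSO libraries lay within the range of the treated SUDHL6 and SUDHL4 libraries, 1.46 to 3.00. As a ratio within a library it does not depend on how libraries are scaled, and it was not tested apart from its 2 genes.

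**Figure D2:**
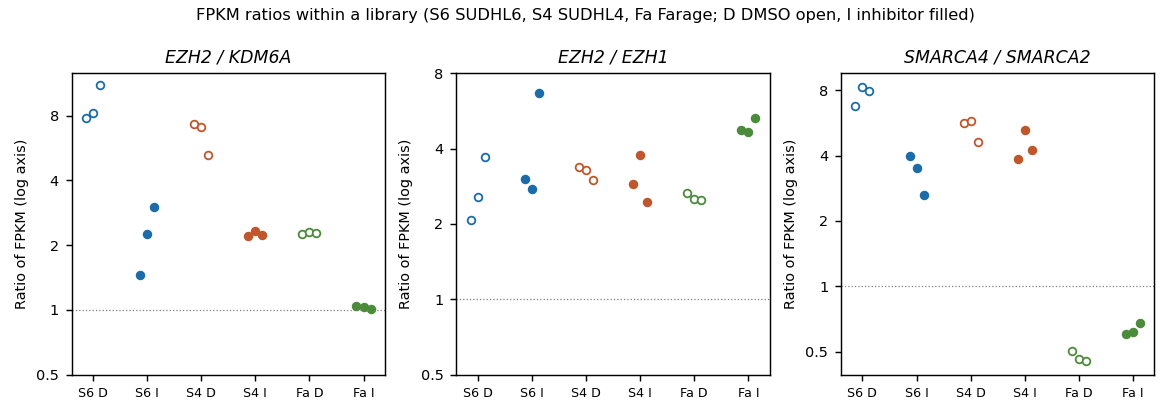
Ratios of FPKM within each library (log axis; open DMSO, filled inhibitor) for EZH2 over KDM6A, EZH2 over EZH1 and SMARCA4 over SMARCA2. EZH2 over KDM6A lies between 5.24 and 11.2 in SUDHL6 and SUDHL4 DMSO libraries and between 1.01 and 3.00 in all inhibitor libraries, and SMARCA4 over SMARCA2 is below 1 in all Farage libraries.

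CREBBP, an acetyltransferase of H3K27 whose loss in lymphoma lowers antigen presentation genes, lies in a row on chromosome 16 from 3774787 to 3930121 (hg19). SUDHL6 libraries held 12.1, 13.1 and 11.7 FPKM in DMSO and 45.6, 32.4 and 36.9 FPKM under the inhibitor. In SUDHL4 the values were 10.7, 11.5 and 15.04 FPKM in DMSO and 50.7, 51.6 and 48.0 FPKM under the inhibitor. In Farage they were 12.0, 9.58 and 10.2 FPKM in DMSO and 29.99, 29 and 27.67 FPKM under the inhibitor. The lowest treated library of any line lay above the highest DMSO library of any line, and SUDHL4 reached the highest levels. CREBBP rose by 1.55 ± 0.13 (SE, limma adjusted p = 1.37e-07) in SUDHL6, 1.94 ± 0.13 (SE, limma adjusted p = 1.18e-08) in SUDHL4 and 1.37 ± 0.13 (SE, limma adjusted p = 2.82e-07) in Farage, on the log2 scale, or 3.11, 4.04 and 2.73 times the DMSO mean. These effects exceeded those of 97.1, 98 and 95.4% of all tested genes. No line stood out at baseline: the means were 12.3 ± 0.751, 12.4 ± 2.33 and 10.6 ± 1.25 FPKM (SD, n = 3 each) in SUDHL6, SUDHL4 and Farage, and no pair of lines was called (limma adjusted p 0.172 to 1). Scaled to equal sums without small RNAs, SUDHL4 lay below SUDHL6 by 0.37, as a difference of -0.37 (limma adjusted p = 0.0187). The closest gene in pattern was RBM33 (root mean square difference 0.105). In these libraries 6 genes of the MHC class II pathway that need CREBBP did not rise with it: 0 were called higher and 5 lower on the mean effect, where 35.7 and 44.9% of all rows were, and the median effect was -0.62 beside -0.08 over all rows. HLA-DMB, which loads peptides together with HLA-DMA, fell by 2.23 ± 0.09 (SE, limma adjusted p = 2.41e-11) on the mean effect. HLA-DMA fell in SUDHL6 and Farage and rose in SUDHL4 (0.49, limma adjusted p = 0.00296), and CIITA, the master activator of the pathway, fell by 1.17 ± 0.11 (SE, limma adjusted p = 1.83e-07) on the mean effect from group means of at most 6.66 FPKM. CIITA was outside the rule for naming genes and was picked after its values were seen.

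SMARCA4, the ATPase of SWI/SNF, lies in a row on chromosome 19 from 11071598 to 11176114 (hg19). In SUDHL6 it stood at 71.9, 91.5 and 86.9 FPKM with DMSO, against 34.7, 44.5 and 38.5 FPKM with inhibitor. In SUDHL4 it stood at 63.9, 69.3 and 57.2 FPKM with DMSO, against 36.3, 40.6 and 37.3 FPKM with inhibitor. In Farage it stood at 29.5, 25.7 and 26.2 FPKM with DMSO, against 16.1, 15.8 and 17.6 FPKM with inhibitor. Every inhibitor library lay below every DMSO library of its line, and Farage in DMSO lay below the treated libraries of both other lines. SMARCA4 fell by 1.07 ± 0.11 (SE, limma adjusted p = 7.78e-07) in SUDHL6, by 0.72 ± 0.11 (SE, limma adjusted p = 2.88e-05) in SUDHL4 and by 0.68 ± 0.11 (SE, limma adjusted p = 4.84e-05) in Farage, on the log2 scale. Of all tested genes, 10% had a lower effect in SUDHL6, 20.7% in SUDHL4 and 22% in Farage. Its baseline differences between Farage and each other line were the widest among the 8. Farage lay at -1.58 ± 0.11 (SE, limma adjusted p = 5.56e-09) from SUDHL6 and at -1.19 ± 0.11 (SE, limma adjusted p = 1.40e-07) from SUDHL4, and SUDHL4 at -0.39 ± 0.11 (SE, limma adjusted p = 0.00540) from SUDHL6. The closest gene in pattern was SFXN4 (root mean square difference 0.1).

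SMARCA2, the alternative ATPase of the complex, had the opposite order of lines, with 57.3 ± 1.49 FPKM in Farage, 10.9 ± 0.256 FPKM in SUDHL6 and 11.9 ± 0.551 FPKM in SUDHL4 in DMSO (SD, n = 3 each). In Farage SMARCA2 exceeded SMARCA4: the ratio of SMARCA4 to SMARCA2 was 0.473 ± 0.0275 (SD, n = 3) in Farage DMSO libraries, beside 7.67 ± 0.775 (SD, n = 3) in SUDHL6 and 5.36 ± 0.624 (SD, n = 3) in SUDHL4. SMARCA2 fell under the inhibitor by 1.11 ± 0.12 (SE, limma adjusted p = 2.06e-06) in Farage, to 26.1 ± 0.457 FPKM (SD, n = 3), and by 0.42 ± 0.12 (SE, limma adjusted p = 0.00791) in SUDHL4. In SUDHL6 its difference was 0.10 ± 0.12 (SE, limma adjusted p = 0.495), and the 3 effects differed between lines (limma adjusted p = 0.000229). The ratio was lower in treated SUDHL6 libraries, at 3.38 ± 0.684 (SD, n = 3), with no overlap of the groups, and stood at 0.633 ± 0.0418 (SD, n = 3) in treated Farage libraries, all above the DMSO libraries of that line. In SUDHL4 it was 4.45 ± 0.715 (SD, n = 3) under the inhibitor, overlapping with DMSO.

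ARID1A, the subunit most often mutated in this complex, lies in a row on chromosome 1 from 27018430 to 27109150 (hg19). In SUDHL6 it stood at 33.5, 34.7 and 32.9 FPKM with DMSO, against 43.35, 48.1 and 57.8 FPKM with inhibitor. In SUDHL4 the values were 20.5, 22.6 and 22.1 FPKM in DMSO and 35.9, 34.5 and 35.9 FPKM under the inhibitor. In Farage they were 29.9, 26.1 and 28.2 FPKM in DMSO and 39.7, 40.4 and 39.0 FPKM under the inhibitor. ARID1A moved opposite to SMARCA4 in every line, with no overlap between the groups, and SUDHL6 inhibitor replicate 3 was its highest library. It rose by 0.54 ± 0.08 (SE, limma adjusted p = 4.90e-05) in SUDHL6, 0.68 ± 0.08 (SE, limma adjusted p = 4.19e-06) in SUDHL4 and 0.49 ± 0.08 (SE, limma adjusted p = 0.000107) in Farage, on the log2 scale. These effects exceeded those of 79.2, 83.6 and 78.6% of all tested genes in the same line. Baseline ARID1A was lowest in SUDHL4, at 21.7 ± 1.13 FPKM (SD, n = 3), with a difference of -0.61 ± 0.08 (SE, limma adjusted p = 1.42e-05) from SUDHL6, which had 33.7 ± 0.942 FPKM (SD, n = 3). Farage, at 28.1 ± 1.91 FPKM (SD, n = 3), lay between them, at -0.26 from SUDHL6 (limma adjusted p = 0.0128), a call that was lost without Farage DMSO replicate 2 (-0.21, limma adjusted p = 0.0620). ARID1B, its paralog, rose in SUDHL4, by 0.39 ± 0.09 (SE, limma adjusted p = 0.00105), and stood at 0.09 in SUDHL6 (limma adjusted p = 0.405) and -0.18 in Farage (limma adjusted p = 0.0761). Under equal sums without small RNAs that SUDHL4 call was lost (0.24, limma adjusted p = 0.143). The closest gene to ARID1A in pattern was CCDC97 (root mean square difference 0.066).

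KDM1A, the H3K4 demethylase that works in corepressor complexes, lies in a row on chromosome 1 from 23345941 to 23495351 (hg19). In SUDHL6 it stood at 27.8, 27.6 and 29.3 FPKM with DMSO, against 12.2, 16.2 and 19.2 FPKM with inhibitor. SUDHL4 gave 43.8, 45.6 and 41.3 FPKM in DMSO and 25.1, 24.5 and 25.7 FPKM under the inhibitor. Farage gave 26.4, 27.7 and 26.7 FPKM in DMSO and 16.5, 17.4 and 18.8 FPKM under the inhibitor. Every inhibitor library lay below every DMSO library of its line, and SUDHL4 was the highest line in both conditions. KDM1A fell by 0.82 ± 0.11 (SE, limma adjusted p = 1.38e-05) in SUDHL6, by 0.77 ± 0.11 (SE, limma adjusted p = 1.99e-05) in SUDHL4 and by 0.59 ± 0.11 (SE, limma adjusted p = 0.000239) in Farage, on the log2 scale. Of all tested genes, 15.7% had a lower effect in SUDHL6, 19% in SUDHL4 and 25.6% in Farage. At baseline SUDHL4 lay above SUDHL6 by 0.61 ± 0.11 (SE, limma adjusted p = 0.000210), and Farage lay at -0.67 ± 0.11 (SE, limma adjusted p = 7.77e-05) from SUDHL4. Both calls were lost when libraries were scaled to equal sums without small RNAs (0.22, limma adjusted p = 0.171, and -0.20, limma adjusted p = 0.213). A row of LUZP1, with a mean of 2.31 FPKM, carries the same start and end as the KDM1A row, so the span is not that of KDM1A alone. Since strand is not given, any reads where these genes overlap cannot be told apart. The closest gene in pattern was WDYHV1 (root mean square difference 0.08).

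DOT1L, the H3K79 methyltransferase, lies in a row on chromosome 19 from 2164148 to 2236328 (hg19). SUDHL6 libraries held 14.2, 16.1 and 12.9 FPKM in DMSO and 12.1, 13.2 and 14.8 FPKM under the inhibitor. SUDHL4 libraries held 10.4, 12.0 and 9.61 FPKM in DMSO and 9.79, 9.08 and 11.1 FPKM under the inhibitor. Farage libraries held 22.2, 17.9 and 19.7 FPKM in DMSO and 19.4, 19.1 and 19.9 FPKM under the inhibitor. The groups overlapped in each line. The mean effect was -0.07, with a 95% interval of -0.20 to 0.06 (limma adjusted p = 0.303), and the single-line intervals ran from -0.33 to 0.20. Effects within these intervals cannot be told from none. Of all tested genes, 44.4% had a lower effect than DOT1L in SUDHL6, 47.6% in SUDHL4 and 52.4% in Farage. The lines did differ in their level: Farage was highest, at 19.96 ± 2.17 FPKM (SD, n = 3), above SUDHL6 by 0.44 ± 0.11 (SE, limma adjusted p = 0.00193) and above SUDHL4 by 0.85 ± 0.11 (SE, limma adjusted p = 6.26e-06). SUDHL4 was lowest, at 10.7 ± 1.21 FPKM (SD, n = 3) and -0.40 ± 0.11 (SE, limma adjusted p = 0.00429) from SUDHL6. A row of MIR6789 with PLEKHJ1, at a mean of 42.5 FPKM, and a row of MIR1227, at 32.1 FPKM, carry the same start and end as the DOT1L row. That span is thus not that of DOT1L alone. The closest gene to DOT1L in pattern was ANKRD10 (root mean square difference 0.066).

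**Figure D3:**
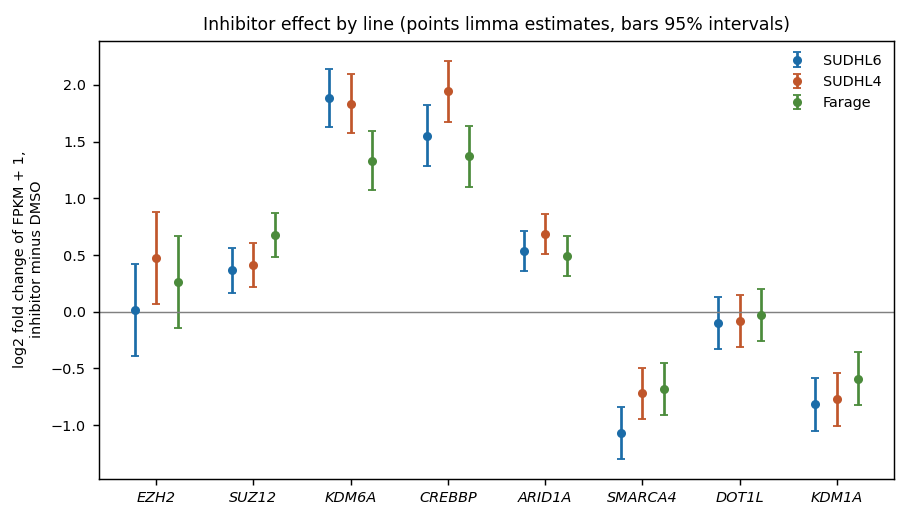
Inhibitor effect on each regulator in each line (points; log2 fold change of FPKM + 1, inhibitor minus DMSO) with limma 95% intervals as bars. KDM6A lies at 1.89, 1.84 and 1.33 and SMARCA4 at -1.07, -0.72 and -0.68 in SUDHL6, SUDHL4 and Farage, and the DOT1L intervals all span 0.

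The effect differed between lines by the test for 2 of the 8 regulators, KDM6A (limma adjusted p = 0.0231) and CREBBP (limma adjusted p = 0.0365), where 52.5% of all tested rows differed. KDM6A rose less in Farage, by -0.55 ± 0.17 (SE, limma adjusted p = 0.0213) beside SUDHL6 and -0.50 ± 0.17 (SE, limma adjusted p = 0.0319) beside SUDHL4. CREBBP rose less in Farage than in SUDHL4, by -0.57 ± 0.18 (SE, limma adjusted p = 0.0210), and neither of these lines was told apart from SUDHL6. With replicate number as a block, both lost the call (limma adjusted p = 0.0592 and 0.0614), and SUZ12, EZH2 and SMARCA4 gained one (0.0319, 0.0421 and 0.0149). The CREBBP call was also lost, at limma adjusted p of 0.0503 to 0.103, without Farage inhibitor replicate 2 or 3, Farage DMSO replicate 1 or 3, SUDHL4 inhibitor replicate 1, 2 or 3, or SUDHL4 DMSO replicate 1 or 2. KDM6A lost its call, at 0.0511 to 0.0545, without Farage inhibitor replicate 2 or Farage DMSO replicate 1 or 3. Without SUDHL6 inhibitor replicate 3, EZH2, SUZ12 and ARID1A gained a call (limma adjusted p = 0.00284, 0.0115 and 0.0445), and SMARCA4 gained one without SUDHL6 inhibitor replicate 2 or SUDHL6 DMSO replicate 1 (0.0242 and 0.0196). No within-line effect that was called changed its sign in any of 29 alternatives. For EZH2, SUZ12, ARID1A, SMARCA4, KDM1A and DOT1L no pair of lines was told apart in the reported fit, with limma adjusted p of at least 0.0609 for each pair.

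Without the inhibitor, 7 of the 8 regulators differed among the 3 lines by the test, where 83.5% of all tested rows did, and CREBBP was the exception (limma adjusted p = 0.238). Between SUDHL4 and SUDHL6, KDM1A was higher and ARID1A, DOT1L and SMARCA4 were lower in SUDHL4, 1 and 3 of the 8, against 30.4 and 33.5% of all rows. Between Farage and SUDHL6, KDM6A, DOT1L and SUZ12 were higher and EZH2, SMARCA4 and ARID1A lower in Farage, 3 and 3 of the 8, against 33.1 and 33.7% of all rows. Between Farage and SUDHL4, KDM6A, DOT1L and ARID1A were higher and EZH2, SMARCA4 and KDM1A lower in Farage, 3 and 3 of the 8, against 33.1 and 30.7% of all rows. Comparisons with SUDHL4 depend on the scaling of the libraries. With equal sums without small RNAs, the median over all rows moved from -0.02 to -0.33 for SUDHL4 against SUDHL6 and from 0.03 to 0.43 for Farage against SUDHL4. The share of calls that were higher moved from 47.5 to 27.2% and from 51.9 to 78.2%. With that scaling SMARCA4 was still called lower in Farage than in SUDHL4 (-0.72, limma adjusted p = 0.000376). EZH2 and KDM1A lost their calls, at -0.30 (limma adjusted p = 0.167) and -0.20 (limma adjusted p = 0.213). Over the 3 lines, it gave CREBBP a call (limma adjusted p = 0.0393) and took that of KDM1A (limma adjusted p = 0.264).

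The rows that carry EED and EP300 could not be read as these genes. EED, the PRC2 subunit that binds the methylated lysine, shares its row with MIR6755, and EP300, the paralog of CREBBP, shares its row with MIR1281. Both microRNA hairpins are shown as RefSeq gives them for GRCh38.p14, with mature sequences in capitals, because they share the rows whose libraries stand apart.
MIR6755 hairpin, chr11:86278333-86278398 (+ strand): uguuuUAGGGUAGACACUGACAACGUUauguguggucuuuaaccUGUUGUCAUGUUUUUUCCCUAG
MIR1281 hairpin, chr22:41092513-41092566 (+ strand): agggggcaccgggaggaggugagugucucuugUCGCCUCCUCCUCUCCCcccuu
The MIR1281 hairpin lies inside the promoter window of EP300, which runs from 41092342 to 41092641 on chromosome 22 (GRCh38.p14). In 15 of 18 libraries the EED row held 13.03 to 36.6 FPKM. It held 355 FPKM in SUDHL4 DMSO replicate 3, 214 FPKM in SUDHL4 inhibitor replicate 2 and 179 FPKM in Farage inhibitor replicate 1. The EP300 row held 15.4 to 66.8 FPKM in 14 libraries and 706, 885, 1347 and 2370 FPKM in 4, all of them DMSO libraries. A single read at an unnamed row of 56 bp was worth 830 to 1379 FPKM in these libraries (16 libraries with such a step). The part of the microRNAs in the high values was not tested. Of 204 tested rows that pair a gene with a small RNA, 38.2% had a highest library at least 5 times the median of the 18 libraries, beside 13.5% of 11609 rows without a small RNA.

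**Figure D4:**
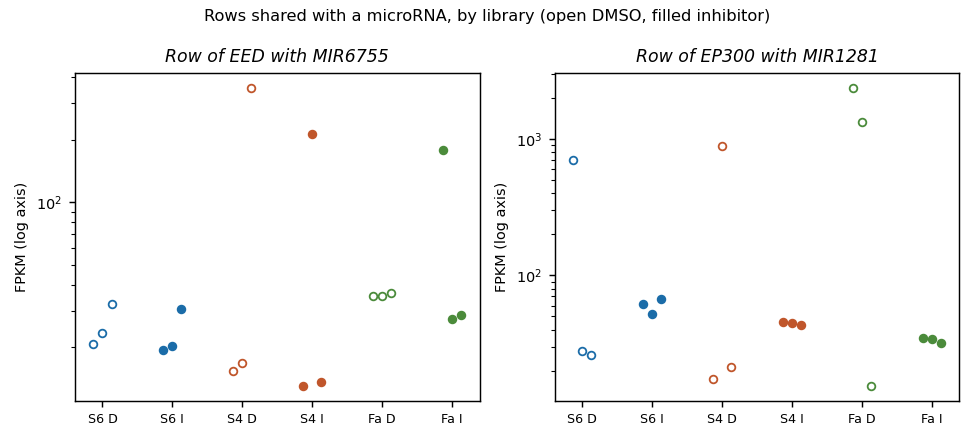
FPKM by library of the row shared by EED and MIR6755 and the row shared by EP300 and MIR1281 (log axes; open DMSO, filled inhibitor). EED has 3 libraries at 179 FPKM or more and 15 at 36.6 FPKM or less, and EP300 has 4 DMSO libraries at 706 FPKM or more and 14 libraries at 66.8 FPKM or less.

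Among the other libraries the EP300 row held 31.6 to 66.8 FPKM in the 9 inhibitor libraries and 15.4 to 27.8 FPKM in the 5 remaining DMSO libraries, which is a description of libraries chosen by their value and is not tested. In the EED row, Farage DMSO libraries held 35.2, 35.3 and 36.6 FPKM and the remaining Farage inhibitor libraries 27.5 and 28.7 FPKM. The SUDHL6 libraries of the EED row overlapped, at 20.8, 23.4 and 32.4 FPKM in DMSO and 19.4, 20.3 and 30.5 FPKM under the inhibitor, and replicate 3 was again the highest of both groups, as for EZH2 and SUZ12.

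The genes that work with these regulators were counted on the mean of the 3 within-line effects, against 35.7% of all tested rows called higher and 44.9% called lower. Among 8 measured PRC2 subunits and accessory factors other than the regulators above, 3 rose and 4 fell, which median-ratio scaling turned to 4 and 3. PHF1, which brings PRC2 to chromatin, rose by 1.46 ± 0.06 (SE, limma adjusted p = 5.36e-11), and MTF2, a relative of PHF1, by 0.52 ± 0.05 (SE, limma adjusted p = 1.86e-07). The histone chaperones RBBP7 and RBBP4 fell by 1.21 ± 0.08 (SE, limma adjusted p = 2.21e-09) and 0.79 ± 0.07 (SE, limma adjusted p = 5.57e-08). The 17 measured PRC1 subunits, the complex that can read the mark of PRC2, split into 9 higher and 8 lower, with RYBP, PHC3 and PCGF3 higher by 1.96, 1.34 and 0.79. Among those that fell were CBX8, which can bind the mark of PRC2, by 0.69 ± 0.08 (SE, limma adjusted p = 1.50e-06) and KDM2B, by 0.53 ± 0.08 (SE, limma adjusted p = 1.52e-05), both picked after their values were seen.

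In the list of other histone demethylases, 11 of 13 measured were higher and 1 was lower, with a median effect of 0.75 beside -0.08 over all rows. KDM2B, a demethylase too, fell and was counted with PRC1 and not here. KDM3A, which acts on lysine 9 of histone H3, rose by 2.03 ± 0.10 (SE, limma adjusted p = 1.96e-10) and JMJD1C, of the same family, by 1.26 ± 0.09 (SE, limma adjusted p = 4.43e-09). KDM1B, the paralog of KDM1A, was the one of this list that fell, by 1.56 ± 0.07 (SE, limma adjusted p = 1.02e-10). In the list of histone acetyltransferases, 8 of 11 measured genes went the way of CREBBP and 2 the other way. The list and the 8 include CITED2 (0.70), which binds CREBBP and is not itself an acetyltransferase. NCOA3, KAT7 and KAT6A rose by 1.21, 0.94 and 0.92, and KAT2A fell by 1.02 ± 0.05 (SE, limma adjusted p = 1.68e-10). The median effect of the 11 was 0.69, and 0.10 in Farage alone. In Farage 4 were called higher and 2 lower, against 29.2 and 38% of all rows in that line.

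Of 18 measured SWI/SNF subunits other than SMARCA4 and ARID1A, 12 fell and 4 rose, with a median effect of -0.18 beside -0.08 over all rows. In SUDHL6 alone 7 fell and 4 rose, against 33.7 and 30.2% of all rows in that line. BCL11A, a lymphoid transcription factor that joins the complex, fell by 2.02 ± 0.24 (SE, limma adjusted p = 1.55e-06), BCL7C by 1.47 ± 0.09 (SE, limma adjusted p = 8.72e-10), BCL7A by 0.83 ± 0.08 (SE, limma adjusted p = 2.73e-07) and the actin-like subunit ACTL6A by 0.70 ± 0.07 (SE, limma adjusted p = 4.77e-07). Scaled by median ratios, 9 fell and 5 rose. The partners of KDM1A in its corepressor complexes had 3 higher and 5 lower among 8 measured. ZMYM3, HMG20B and HDAC1, the histone deacetylase of the complex, fell by 1.38, 1.05 and 0.69, and ZMYM2 rose by 1.16. For DOT1L, 3 of 6 measured partners rose and 2 fell. AFF4, the scaffold of the super elongation complex, rose by 1.61 ± 0.08 (SE, limma adjusted p = 1.03e-10), MLLT10, which binds DOT1L, rose by 0.36 ± 0.06 (SE, limma adjusted p = 2.76e-05), and MLLT6 fell by 0.44 ± 0.08 (SE, limma adjusted p = 0.000102). In SUDHL6, SUDHL4 and Farage, MLLT10 stood at 0.05, 0.65 and 0.36 and MLLT6 at -0.96, -0.33 and -0.03. Both effects differed between lines (limma adjusted p = 0.00617 and 0.00285).

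**Figure D5:**
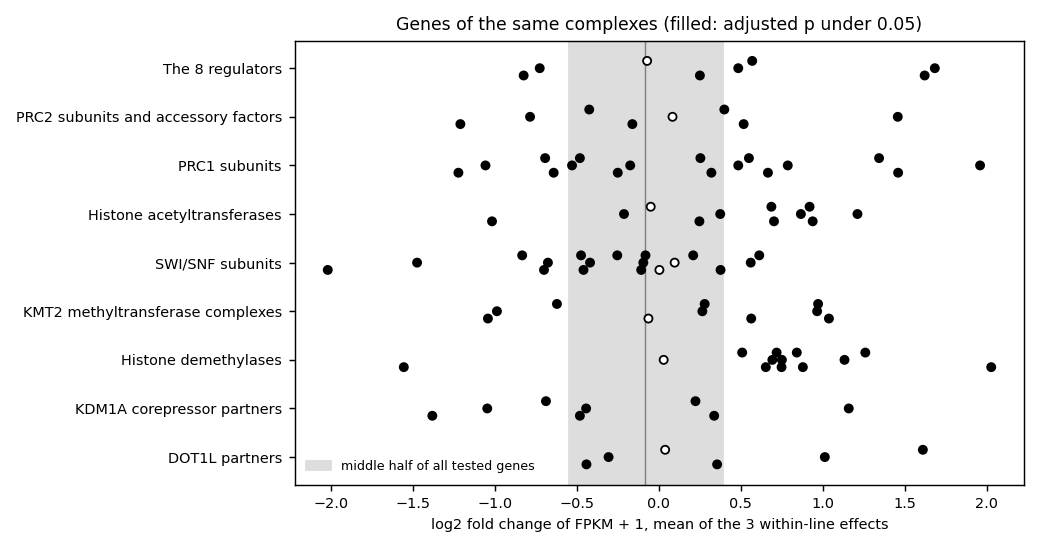
Mean of the 3 within-line inhibitor effects (log2 fold change of FPKM + 1) for the 8 regulators and the genes of the complexes they work in, 1 point per gene, filled where the limma adjusted p is under 0.05. The grey band spans the quartiles of all 12201 tested rows, from -0.55 to 0.39, around their median of -0.08, and 11 of the 13 listed histone demethylases lie to its right.

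The KMT2 complexes, which place the lysine 4 methylation that KDM1A removes, had 6 of 10 measured genes higher and 3 lower, and 5 higher and 4 lower with equal sums without small RNAs. The core subunits ASH2L and WDR5 fell by 1.04 ± 0.04 (SE, limma adjusted p = 3.61e-11) and 0.99 ± 0.05 (SE, limma adjusted p = 1.10e-10), and SETD1B and NCOA6 rose by 1.04 and 0.97. KMT2D, a frequent target of mutation in this lymphoma, appeared only in a row shared with another gene and has no value here. S phase genes fell along with the treatment in all lines: 17 of 18 measured were lower and 0 higher on the mean effect, with a median of -1.34. Their sum ran from 968 to 1605 FPKM in SUDHL6 DMSO and from 378 to 934 FPKM in SUDHL6 inhibitor libraries. In SUDHL4 it ran from 708 to 813 and from 230 to 257 FPKM, and in Farage from 873 to 930 and from 431 to 452 FPKM. EZH2 is known as a gene of cycling cells, and it passed the test as lower in no line unless SUDHL6 inhibitor replicate 3 was left out. The S phase sums moved with the treatment beside all results above, and the part of cell cycle changes in these results was not tested. On the mean effect the 5 measured B cell markers fell as well, PAX5 by 1.97 ± 0.12 (SE, limma adjusted p = 1.17e-09). In SUDHL6 and in Farage 4 of the 5 were called lower, where 33.7 and 38% of all rows were. BCL6, the target of the inhibitor, stood at 0.20 in Farage (limma adjusted p = 0.142). With median-ratio scaling BCL6 was called higher there (0.28, limma adjusted p = 0.04955). The part of these markers in the results was not tested either. Of the marker lists of other cells, 1 T and NK cell marker was measured and fell, 2 monocyte markers rose and 2 stromal and epithelial markers fell on the mean effect. These falls came from SUDHL4. In SUDHL6, SUDHL4 and Farage, THY1 stood at 0.0, -2.00 and -0.01, DCN at 0.0, -1.42 and 0.05, and the T and NK cell marker at 0.0, -0.315 and 0.0. The monocyte marker LYZ lost its call with equal sums without small RNAs (0.185, limma adjusted p = 0.105).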

How the data were processed

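Messenger RNA was sequenced from 3 lymphoma lines in 6 groups of 3 libraries, and the authors deposited 1 FPKM value per library and locus for 34410 loci. CASAVA 1.8, TopHat2, Cufflinks and the build hg19 are named in the submitters' processing notes; for other versions, the annotation and the strand setting nothing is given in the sources used here. The table holds FPKM and no counts, so no counting interval is given. Small RNA rows are rows with a microRNA, small nucleolar, small nuclear or similar symbol among their names, rows shared with other genes included. Rows with a name and at least 1 FPKM in at least 3 libraries were kept (12201, of which 1384 carry several gene names), taken as log2(FPKM + 1) and fitted with 1 mean per group in limma 3.58.1 (R 4.3.3), with an intensity trend and Benjamini-Hochberg adjustment at 0.05 over all rows. Fold changes on this scale understate the change of low genes. Tables and plots were made with Python 3.11.15, pandas 2.3.3 and matplotlib 3.10.9. The fit was tested on simulated data.

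The members, gene lists, tests and alternatives were chosen with earlier results of these data known. Besides the regulators, the text names up to 4 genes of each list with the largest called mean effect and a mean of at least 5 FPKM in a row of 1 gene. It also names the paralogs EZH1, SMARCA2, ARID1B, KDM6B and KMT2D, BCL6 as the target of the inhibitor, and the genes closest in pattern. Some genes that this rule names are not reported here. Promoters and hairpins came from RefSeq tables of GRCh38.p14, which covered 9 of the 10 regulators, all but DOT1L. Row positions are hg19, as deposited.

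Whether replicate numbers pair the libraries was checked by correlating deviations from group means across genes. In SUDHL6, same-numbered libraries correlated at 0.309, 0.366 and 0.664. Replicates 1 and 2 of that line correlated about as well across numbers, at 0.271 and 0.32. The check thus sets the replicate 3 libraries of SUDHL6 apart and does not pair replicates 1 and 2 by number. Same-numbered libraries correlated at -0.034, 0.064 and -0.058 in SUDHL4 and at 0.073, -0.038 and 0.077 in Farage, so there they share only a number. No label states a shared batch or day. The reported fit has no block, and blocked values stand where they change a call. The alternatives were another pseudocount (0.1), no filter, 2 other scalings, no trend, each line alone, the block, a correction for GC content and transcript length (available for 96.5% of rows), summed rows, each library left out and both SUDHL6 replicate 3 libraries left out.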

Additional observations from a re-analysis of the deposited data

Results flagged for a closer look

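The inhibitor effect on KDM6A differed between the lines, with a limma adjusted p of 0.0231 for the difference itself, and that on CREBBP with 0.0365. KDM6A rose by 1.89, 1.84 and 1.33 and CREBBP by 1.55, 1.94 and 1.37 on the log2 scale in SUDHL6, SUDHL4 and Farage, in 9 of 9 treated libraries each. Over the alternatives the limma adjusted p of the difference ran from 0.00186 to 0.0592 for KDM6A and from 0.00620 to 0.136 for CREBBP, and 52.5% of all tested rows passed the same test. The part of the wider spread of the SUDHL6 groups in these differences was not tested.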

How the results depend on the processing

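Depth is unknown in absolute terms and FPKM of low genes are the least precise. Of 2040 regulator results under 29 alternatives (28 for comparisons across lines), 1928 kept their sign and side of the threshold, 55 lost a call, 34 gained one and 23 changed sign, and no called within-line effect changed sign. Among counts of regulators and of all rows, those outside 1.5 times the main count were these. The 2 regulators whose effect differed between lines became 4 with median-ratio scaling, 1 without a filter, 5 without both SUDHL6 replicate 3 libraries and 0 to 5 when single libraries were left out. With equal sums without small RNAs, SUDHL4 against SUDHL6 gave 0 regulators higher (main 1), 6 lower (main 3) and 2288 rows higher (main 3705), and Farage against SUDHL4 gave 1 regulator lower (main 3), 6747 rows higher (main 4033) and 1886 lower (main 3743). Without both SUDHL6 replicate 3 libraries, SUDHL4 against SUDHL6 gave 2 regulators higher. The cause was not tested. All 23 sign changes were of values not called in the main analysis. EZH2 in SUDHL6 (0.02) became -0.044 with the GC and length correction, with or without the replicate block, -0.054 with equal sums, -0.13 without both replicate 3 libraries and -0.29 to 0.20 without single libraries. DOT1L in Farage (-0.03) became 0.16 with that correction, with or without the block, 0.049 with median ratios and -0.102 to 0.047 without single libraries, above 0 without Farage DMSO replicate 1. For SUDHL4 against SUDHL6, SUZ12 (0.09) became -0.078 with the correction, with or without the block, and -0.30 with equal sums (limma adjusted p = 0.0112), CREBBP (-0.002) became 0.019 with the correction, with or without the block, 0.031 with median ratios and 0.04, 0.04 and 0.09 without SUDHL6 DMSO replicate 2, SUDHL4 DMSO replicate 2 or SUDHL4 DMSO replicate 1, and KDM6A (0.20) became -0.14 with equal sums. With equal sums, CREBBP for Farage against SUDHL4 (-0.20) became 0.251 and KDM1A for Farage against SUDHL6 (-0.07) became 0.022. The SUDHL4 call of EZH2 was also lost without a filter (limma adjusted p = 0.0591). The baseline call of SUZ12 over the 3 lines was lost without Farage DMSO replicate 1 or 3 or SUDHL6 DMSO replicate 1 or 2 (limma adjusted p 0.0525 to 0.0760). The replicate block changed no call but those given for EZH2 in Farage and for the difference between lines of EZH2, SUZ12, SMARCA4, CREBBP and KDM6A.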

Other observations

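Genes that EZH2 is known to repress in germinal centre B cells were measured in 5 cases. On the mean of the 3 within-line effects 4 were called higher and 1 lower, where 35.7 and 44.9% of all rows were, with a median of 0.76. CDKN1A, an inhibitor of cyclin-dependent kinases and also a known target of BCL6, rose by 2.61 in SUDHL6, 1.87 in SUDHL4 and 1.43 in Farage (limma adjusted p = 3.79e-05, 0.000622 and 0.00462). IRF4, a plasma cell factor, rose by 2.10 in SUDHL6 and 1.82 in Farage (limma adjusted p = 0.000603 and 0.00168) and stood at 0.99 in SUDHL4 (limma adjusted p = 0.0545), a value that was called without both SUDHL6 replicate 3 libraries (1.22e-05). CDKN1B rose by 1.16 in SUDHL6 and 1.07 in SUDHL4 (limma adjusted p = 9.75e-07 and 1.58e-06) and stood at 0.05 in Farage (limma adjusted p = 0.741). CDKN2A was the one called lower, at -0.15 on the mean effect (limma adjusted p = 0.0204), and lost that call with median-ratio scaling (-0.09, limma adjusted p = 0.131) and without both SUDHL6 replicate 3 libraries (-0.12, limma adjusted p = 0.0670). PRDM1, the master regulator of plasma cells, was at or near 0 in SUDHL6 and SUDHL4 and rose in Farage from 0.533 ± 0.0161 to 1.67 ± 0.156 FPKM (SD, n = 3 each, limma adjusted p = 3.14e-09). PRDM1 was outside the rule for naming genes and was picked after its values were seen.

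The ratio of CREBBP to KDM1A, an activator over a corepressor enzyme, was 0.437 ± 0.0394, 0.287 ± 0.0676 and 0.394 ± 0.055 (SD, n = 3 each) in DMSO and 2.56 ± 1.03, 2.00 ± 0.119 and 1.65 ± 0.173 (SD, n = 3 each) under the inhibitor in SUDHL6, SUDHL4 and Farage. All 9 DMSO libraries lay below 1 and all 9 inhibitor libraries above it. It was picked after the values of both genes were seen and is not tested.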
